A study of Mus musculus with 9 samples.

Results

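Cdk8, the gene of the kinase of the Mediator complex, was followed through every spot that carried it on 9 spotted cDNA arrays of mouse muscle cells and fibroblasts. All clones with the symbol Cdk8 were taken, which gave 1 gene of 7612 distinct symbols and 1 clone, H3082H09 (UniGene cluster Mm.260576, chromosome 5), of 15294 clones. That clone was the only one of its cluster, so no other clone checks its identity, and it was spotted in duplicate on each array, which gave 18 spots and 36 channel intensities. The gene was chosen by its measured ratios against MB and against MT in the arrested myoblasts, so those values are given as a description with no test, and the other comparisons were tested.

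C2C12, a mouse line of muscle precursor cells, gave 3 of the 4 states: growing myoblasts in growth medium (MB), myoblasts held out of the cell cycle by 48 h of suspension culture (G0 MB) and myotubes formed in differentiation medium (MT). The fourth state was fibroblasts arrested in suspension for the same time (G0 FB), named C3H10T1/2 in the methods and NIH 3T3 in the labels. On each array the cDNA of 2 states was hybridised together in separate dyes, Cy3 and Cy5, with 3 arrays of G0 MB over MB and 2 arrays for each other pair: MT over MB, G0 MB over MT, G0 MB over G0 FB. According to the methods, each pair of states had a biological replicate and a dye reversal among its arrays, but the labels do not say which arrays came from separate cultures. The errors of the fit therefore measure the spread between arrays, taken over all comparisons together, and that spread may be technical. In RNA pooled from many cells a change per cell cannot be told apart from a change in the share of cells expressing the gene. The treatment field of all arrays speaks of replating after arrest, and 1 array against G0 FB has NIH 3T3 in the source text of its G0 MB but C2C12 as their cell line. The titles were followed.

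Mediator carries signals from transcription factors bound to DNA to RNA polymerase II. Its head, middle and tail parts form the core, and a separable kinase module docks on that core. In the module CDK8, or its close relative CDK19, is paired with cyclin C and held by MED12 and MED13. The kinase phosphorylates transcription factors and parts of the transcription machinery, and the docked module can hinder the contact of the core with the polymerase. In colon cancer cells CDK8 is known as a coactivator of β-catenin, and in other cells it takes part in the responses to serum and interferon.

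The direction of a ratio needed care on these arrays. With the dyes read as labelled, both MT over MB arrays correlated with each other at r = -0.49 over all clones, although both name MT as the Cy5 sample, so the direction of that comparison is not settled. The labels of this pair also show no dye reversal, which the methods describe for each pair. A second reading was therefore carried throughout, called title order here, in which the sign of the deposited log2 value table is read as test over reference as the titles name them. Title order turns replicate 1 of MT over MB and all arrays that set G0 MB against MT or against G0 FB, and it leaves G0 MB over MB as it is. Signed values below follow the labelled dyes unless title order is named.

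Markers of the named states moved as follows. Of 10 proliferation genes, all with clones on the array, 9 were tested in G0 MB over MB and 8 of them had mean log2 ratios under 0, between -4.32 and 0.55 with a median of -2.06. The tenth, Mcm6, a DNA helicase subunit, had values on 2 arrays, -3.39 and -3.53. Top2a, a DNA topoisomerase of dividing cells, was at -4.72, -3.49 and -0.83 on the 3 arrays. In MT over MB, 4 of 7 proliferation genes tested had means above 0 by the labelled dyes, with a median of 0.06. In title order 0 of the 7 did, with a median of -1.06. Of 17 muscle genes only Mylpf and Tpm2 had clones, so the myogenic factors could not be looked at. Mylpf, the regulatory light chain of fast myosin, had log2 ratios of -4.68 and 12.70 on the arrays of MT over MB and of 4.20 and 3.02 on those of G0 MB over MT by the labelled dyes, which puts it higher in the G0 MB than in the MT on both. The brighter clone of Tpm2, a muscle tropomyosin, was likewise at 2.23 and 1.78 in G0 MB over MT. The labels thus went against these markers in G0 MB over MT, and in title order both genes were higher in the MT on all 4 arrays that hold MT. A value needed only 1 channel above the detection limit, so the size of a ratio such as the 12.70 of Mylpf is uncertain. Against G0 FB the brighter Tpm2 clone was at -2.60 and -2.68 in the G0 MB by the labelled dyes. Mylpf was at -8.52 on the 1 array with a value, its size again uncertain. Both muscle genes were thus higher in the channel labelled G0 FB. The paper describes G0 MB as undifferentiated, so these values do not decide the direction against G0 FB. Of 9 fibroblast genes, 4 were tested there, 2 on each side of 0, between -1.49 and 2.72, and Pdgfra, a growth factor receptor of fibroblasts, had a single value of 3.82.

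Cdk8 was bright wherever it was measured. All 36 channels lay above the detection limit of their array, the lowest at 5.07 times its limit, so none of its ratios rests on a channel at background. In G0 MB over MB, replicate 1 gave 727187 and 621834 intensity units in the G0 MB channel and 108768 and 107936 in the MB channel for its 2 spots. Replicate 2, with the dyes exchanged, gave 1008605 and 1111508 for G0 MB and 273463 and 306636 for MB. Replicate 3 was dimmer in both channels, at 100815 and 98473 for G0 MB and 15068 and 15780 for MB. On each of these arrays the G0 MB channel was above the MB channel at both spots, with no overlap within an array.

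**Figure D1:**
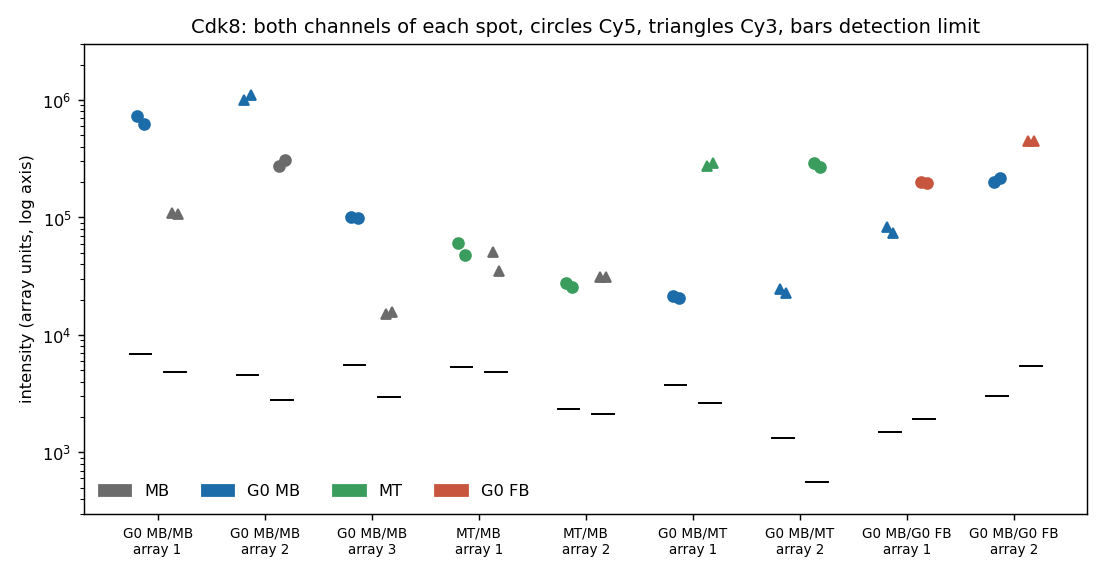
Deposited intensity (log axis) of both channels of each Cdk8 spot on the 9 arrays, with colour for the cell state by the labelled dyes, circles for Cy5 and triangles for Cy3; black bars are the detection limit of that array and channel. All 36 points lie above their bar, the lowest by 5.07 times.

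The MT and MB channels were close to each other. Replicate 1 of MT over MB gave 61167 and 48297 for MT against 50574 and 35108 for MB, and replicate 2 gave 27832 and 25453 against 30901 and 31093. The MT channel was thus the brighter on replicate 1 and the dimmer on replicate 2.

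Where G0 MB and MT were hybridised together, the channel labelled G0 MB was far below the channel labelled MT. Replicate 1 gave 21366 and 20773 for G0 MB and 274951 and 292849 for MT. Replicate 2, again with exchanged dyes, gave 24382 and 22558 for G0 MB and 288983 and 269115 for MT. In title order the names of the channels change places, and the bright channel is then the G0 MB.

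Against G0 FB, the channel labelled G0 MB was again the dimmer, by a smaller margin. Replicate 1 gave 82151 and 73533 for G0 MB and 199591 and 197434 for G0 FB, and replicate 2, with the dyes exchanged, gave 200935 and 215845 against 444121 and 447266. Title order changes the names of these channels as well.

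Over the arrays that hold a state, the mean Cdk8 intensity of an array ran from 15424 to 290049.5 for MB (5 arrays), from 21069.5 to 1060056.5 for G0 MB (7 arrays), from 26642.5 to 283900 for MT (4 arrays) and from 198512.5 to 445693.5 for G0 FB (2 arrays), with the states named by the labelled dyes. The medians were 42841 for MB, 99644 for G0 MB, 166890.5 for MT and 322103 for G0 FB. In title order the medians were 54732 for MB, 283900 for G0 MB, 25056 for MT and 143116 for G0 FB, so MT went from the second highest to the lowest. The ranges overlap between all states by the labelled dyes, while in title order that of MT, 21069.5 to 42841, lay below those of G0 MB and G0 FB. Each array was normalised separately, so no order of states is drawn from these medians, and only the ratio within an array compares states.

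As log2 ratios, averaged over the duplicate spots, Cdk8 was at 2.63, 1.87 and 2.69 in G0 MB over MB. All 3 arrays lay on the same side of 0. The mean was 2.40 ± 0.46 (SD, n = 3), a ratio of 5.27-fold. The G0 MB was the Cy5 sample on replicates 1 and 3 and the Cy3 sample on replicate 2, so the brighter channel followed the labelled sample and not the dye. Of 6903 clones tested, 91 had a higher mean ratio than Cdk8. On the single arrays, 302 of 8349, 543 of 9872 and 57 of 7696 clones were higher.

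In MT over MB, Cdk8 was at 0.37 and -0.22, on either side of 0. The fitted mean was 0.07 (SE 0.38, n = 2, 95% interval -0.79 to 0.94, limma adjusted p = 1) by the labelled dyes and -0.29 (SE 0.36, interval -1.10 to 0.51, limma adjusted p = 0.999) in title order. Neither reading passed the test. The intervals still allow a difference in either direction, and they do not show that the 2 states have equal Cdk8. In this comparison 0% of 5373 clones were called by the labelled dyes, and 1.3% had an unadjusted p under 0.05. The arrays ran against each other in that reading (r = -0.49), so opposite values cancel in the mean. A low count was therefore likely whatever the states, and it does not show that few clones differ. In title order (r = 0.49) 0.614% were called, and 12% had an unadjusted p under 0.05.

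In G0 MB over MT, Cdk8 was at -3.75 and -3.57 by the labelled dyes, with a mean of -3.66 ± 0.13 (SD, n = 2), a ratio of 12.7-fold. Both arrays gave almost the same size although the dyes were exchanged between them. Over all clones, however, these arrays correlated at only r = 0.02 in either reading, so they did not agree in general. That r was 0.21 in G0 MB over G0 FB and 0.20 to 0.68 between the arrays of G0 MB over MB. In G0 MB over MT only 11 of 5134 clones tested had a lower mean ratio than Cdk8. In title order the mean was 3.66, with 11 clones higher, so the size of this difference is shared by both readings and its direction is not. Over all clones 0.039% were called here by the labelled dyes and 0.37% in title order.

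In G0 MB over G0 FB, Cdk8 was at -1.35 and -1.10, with a fitted mean of -1.23 (SE 0.38, n = 2, 95% interval -2.09 to -0.36), a ratio of 2.34-fold. Both arrays lay below 0 by the labelled dyes and above 0 in title order, where the mean was 1.23 (interval 0.42 to 2.03). The unadjusted p was 0.011 by the labelled dyes and 0.0074 in title order. After adjustment over 6211 clones the limma adjusted p was 1 and 0.541, so Cdk8 was not called in either reading. In each reading 0.0805% of clones were called in this comparison, and by the labelled dyes 132 clones had a lower mean ratio than Cdk8.

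**Figure D2:**
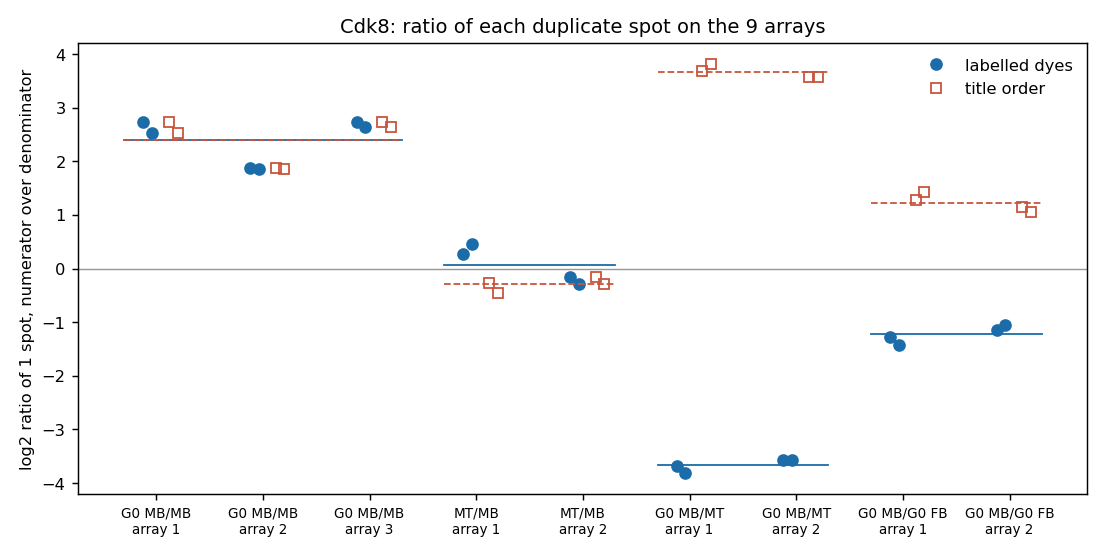
Log2 ratio of each Cdk8 spot on the 9 arrays, numerator over denominator as named under each array, by the labelled dyes (filled circles) and in title order (open squares); horizontal lines are the means over the arrays of a comparison. Both readings coincide at a mean of 2.40 in G0 MB/MB, and they stand at -3.66 and 3.66 in G0 MB/MT and at -1.23 and 1.23 in G0 MB/G0 FB.

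The duplicate spots of an array differed by 0.0094 to 0.21 on the log2 scale, the widest on replicate 1 of G0 MB over MB. The spread between the arrays of a comparison was larger than that in G0 MB over MB, with an SD of 0.46. Duplicate spots share 1 slide and 1 pair of labelled samples, so they were averaged and not counted as replicates.

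The 3 comparisons among C2C12 states form a loop, since G0 MB over MT can also be had as the difference between G0 MB over MB and MT over MB. By the labelled dyes this indirect value was 2.32 for Cdk8 while the direct value was -3.66, a gap of -5.99. Of 4417 clones with all 3 values, 9 had a larger gap, and the median gap without its sign was 0.79. In title order the indirect value was 2.69 and the direct value 3.66, a gap of 0.97, and 1121 clones had a larger one beside a median of 0.58. For Cdk8 the direct and the indirect value thus had the same sign in title order and opposite signs by the labelled dyes. Cdk8 was chosen by its ratios against MB and against MT, which make up this gap. Its gap and rank therefore do not decide between the readings. The indirect and the direct value share no array.

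**Figure D3:**
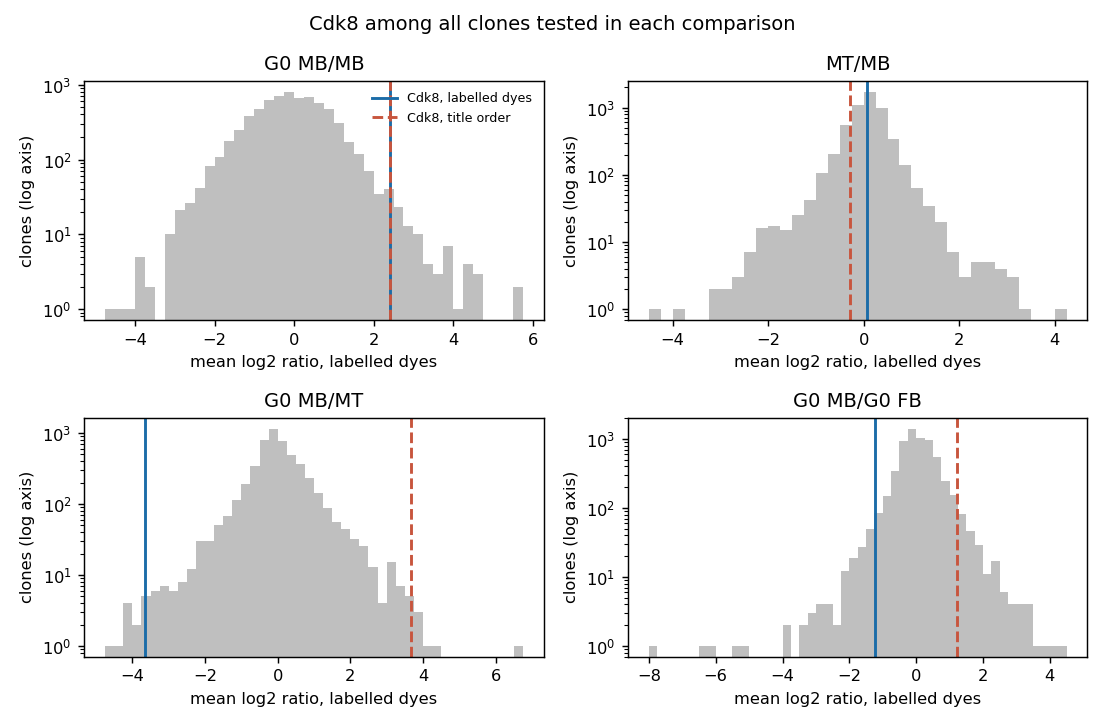
Number of clones (log axis) by mean log2 ratio in bins of 0.25, by the labelled dyes, for all clones tested in each comparison, with the Cdk8 mean as a solid line (labelled dyes) and a broken line (title order). Cdk8 sits in the upper tail of G0 MB/MB with 91 of 6903 clones above it, near the centre of MT/MB, and far out in G0 MB/MT with 11 of 5134 clones beyond it.

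The partners of Cdk8 in the kinase module were mostly dim. The other module genes with clones on the array were 5, Ccnc, Cdk19 (symbol Cdc2l6 in the files), Med13 (1110067M05Rik), Med13l (Thrap2) and Med12l (AU044581), while Med12 had none. Ccnc, which encodes cyclin C, the activating partner of CDK8, had values on 8 of 9 arrays. Its log2 ratios were 1.57 and 1.19 on replicates 1 and 2 of G0 MB over MB and it had no value on replicate 3. The mean of 1.38 lay on the same side as that of Cdk8. It did not pass the test (limma adjusted p = 0.375 by the labelled dyes and 0.0836 in title order). The G0 MB over MB ratios themselves are the same under both readings. The fit takes 1 error variance per clone from all 9 arrays, so turning arrays of another pair of states changes these p-values. For Ccnc that variance includes the MT over MB values, which by the labelled dyes have opposite signs (-1.93 and 2.50). On replicate 1 of G0 MB over MB the MB channel was under the limit, so the size of the Ccnc ratio there is uncertain. For G0 MB over MB 0.391% of all clones were called by the labelled dyes and 2.96% in title order.

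In the other comparisons Ccnc did not run with Cdk8. It was at -1.93 and 2.50 in MT over MB, a mean of 0.29 by the labelled dyes and of 2.22 in title order (limma adjusted p = 1 and 0.051). In G0 MB over MT it was at 0.76 and 0.43, where Cdk8 was at -3.75 and -3.57. The signs of these genes on the same arrays were therefore opposite under either reading, since turning an array turns both. In G0 MB over G0 FB it was at 0.28 and 1.05 (limma adjusted p = 1 under both readings). The difference between the genes was not tested.

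Cdk19, the paralogue that can take the place of CDK8 in the module, had values on 3 arrays only, in none of them with the labelled G0 MB channel above the limit. On replicate 3 of G0 MB over MB only the MB channel passed its own limit, at a log2 ratio of 0.31. On replicate 2 of G0 MB over G0 FB the channel labelled G0 FB averaged 21183.5 and the channel labelled G0 MB averaged 60.5, which was not above the limit, while on replicate 1 neither channel passed. The difference against G0 FB thus rests on 1 array. On replicate 1 of G0 MB over MT, 1 spot gave 342 in the channel labelled G0 MB and 2663 in the channel labelled MT. The latter was just above its limit of 2627, and the log2 ratio was -2.96. In title order the brighter channel of both these arrays is the G0 MB, so an absence of Cdk19 from G0 MB cannot be read from them.

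MED13 and its relative MED13L link the module to the core. The 2 Med13 clones had values on 5 arrays each. Clone H3085F02 was at 1.16, 1.18 and -0.35 in G0 MB over MB, a mean of 0.67 (limma adjusted p = 0.402), and at 0.15 and 1.32 in G0 MB over G0 FB. In G0 MB over MB its MB channel was under the limit on replicates 1 and 2 and its G0 MB channel on replicate 3. Against G0 FB, the channel labelled G0 FB was under the limit on replicate 2. Clone H3133H08 had a single value in G0 MB over MB, 0.73. Of 3 Med13l clones, 1 was measured, at -0.63, -0.29 and -1.30 in G0 MB over MB with the G0 MB channel under the limit on all 3 arrays. Its mean of -0.74 did not pass the test (limma adjusted p = 0.258). The 2 Med12l clones, for a relative of MED12, had 1 array each.

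In all, 8 lists held 80 genes of Mediator, other transcription kinases and cyclins, RNA polymerase II, factors known to work with CDK8 and genes known to need it in other cells. Clones for 55 of them were on the array, 30 had enough values in the clone used to enter the fit, and 29 were tested in G0 MB over MB, 21 in MT over MB, 18 in G0 MB over MT and 25 in G0 MB over G0 FB. By the labelled dyes 0 passed the limma test in each comparison. At an unadjusted p under 0.05 there were 4 of 29 in G0 MB over MB (22.5% of all clones), 0 of 21 in MT over MB (1.3%), 2 of 18 in G0 MB over MT (7.95%) and 4 of 25 in G0 MB over G0 FB (3.62%). In title order these counts were 6 of 29 (26.1%), 4 of 21 (12%), 3 of 18 (10.6%) and 4 of 25 (5.44%). At 1.6-fold alone, 6 of the 29 were higher and 8 lower in G0 MB over MB, where 20.8% and 25.8% of all clones were. By the same measure 1 was higher and 2 lower in MT over MB (6.81% and 5.29% of all clones), 1 higher and 3 lower in G0 MB over MT (15.1% and 12.3%), and 4 higher and 3 lower in G0 MB over G0 FB (11.6% and 6.94%). Title order gave 4 higher and 3 lower in MT over MB (11% and 15.2% of all clones) and exchanged the sides of the comparisons of G0 MB with MT and with G0 FB. The median log2 ratio of the listed genes in G0 MB over MB was -0.03 and that of all clones -0.08. In title order 2 of the 29 were called in G0 MB over MB, beside 2.96% of all clones, and 0 in each of the other comparisons.

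Those 2 were Ccnl2 and Polr2f. Ccnl2, a cyclin linked to splicing, was at 2.31, 2.03 and 1.46 in G0 MB over MB, the listed gene with the highest mean there. Its mean of 1.93 had a limma adjusted p of 0.053 by the labelled dyes and 0.0259 in title order. Both its channels were above the limit on 1 array. Polr2f, a small subunit shared by the RNA polymerases, was at -2.46 and -1.80. Its limma adjusted p was 0.0702 by the labelled dyes and 0.0358 in title order. The G0 MB over MB ratios of Ccnl2 and Polr2f do not change with the reading. Their calls in title order thus depend on the error, which draws on other arrays too, and on the adjustment over all clones. In MT over MB and G0 MB over G0 FB, neither gene passed the test in either reading.

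The core of Mediator gave no call. In the head, Med29 was at -1.20, -1.10 and 0.73 in G0 MB over MB, with its arrays on both sides of 0. In the middle, Med7 was at 1.35, 0.62 and 0.03, a mean of 0.67 (limma adjusted p = 0.269). In the tail and backbone, the brighter clone of Med14, the scaffold subunit, was at 0.24, 0.01 and -0.13. The other core genes tested in the clone used had values on 2 arrays. Med28, of the head, was at -1.36 and -1.86, a mean of -1.61 (limma adjusted p = 0.252 by the labelled dyes and 0.0956 in title order), and Med15, a tail subunit that contacts activators, was at -1.03 and -0.72, a mean of -0.88. In the clones used, the means of the 5 core genes ran from -1.61 to 0.67 in G0 MB over MB, where Cdk8 was at 2.40. Clones not used had means of 0.91 for Med14 and -0.61 for Med10 there, each on 3 arrays and not called.

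Factors that CDK8 is known to work with were tested in the clone used in 6 cases in G0 MB over MB. The listed gene Crebbp was tested there only in clones not used. Their means were 0.08 and 0.56, each on 3 arrays and not called. Lef1, the DNA-binding partner of β-catenin, was at 1.89, 0.45 and 0.55, a mean of 0.96 (limma adjusted p = 0.215). Srebf1, the lipid synthesis factor whose protein CDK8 is known to mark for destruction, was at -0.02, -0.79 and -1.49, a mean of -0.76 (limma adjusted p = 0.345). Srebf1 was at 1.61 and 2.82 in G0 MB over MT, on the side opposite to Cdk8 on both arrays (limma adjusted p = 0.318 by the labelled dyes and 0.175 in title order). Ctnnb1, the gene of β-catenin, was at -1.95 and -1.28 on the same arrays, on the side of Cdk8 (limma adjusted p = 0.698 by the labelled dyes and 0.241 in title order). In G0 MB over MB it was at -0.41, 0.81 and 1.48, on both sides of 0. Against G0 FB, Ctnnb1 was at 0.72 and 0.46, opposite to Cdk8 on both arrays. In MT over MB it was at 2.25 and -1.43, with the signs of Cdk8. The brighter clone of Stat3, a cytokine response factor, was at -0.06 and -1.29 in G0 MB over MT, with no array there on which both channels were above the limit. That clone was at -0.19 and 1.65 in G0 MB over MB. Against G0 FB it was at 1.56 and 3.57, opposite to Cdk8 on both arrays. The other Stat3 clone had a value on 1 array of G0 MB over MT, at 0.83, on the side opposite to Cdk8. It also had a value on 1 array against G0 FB, at -0.76, on the side of Cdk8.

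Genes known to need CDK8 in other cells, among them immediate early genes of the serum response, were tested in 4 cases in G0 MB over MB. Jun, a subunit of AP-1, was at 0.20, 0.40 and 2.33 in G0 MB over MB, a mean of 0.98 (limma adjusted p = 0.272), with replicate 3 well above the others. Egr1, a zinc finger factor, was at 0.15, 0.41 and 1.57, a mean of 0.71 (limma adjusted p = 0.314). Jun was at -1.82 and -3.06 in G0 MB over MT, with no array on which both channels were above the limit (limma adjusted p = 0.302 by the labelled dyes and 0.159 in title order). Fos, the AP-1 partner of Jun, was at -0.42, 0.77 and 0.90 in G0 MB over MB, on both sides of 0. Myc, a growth factor response gene, had a mean of -0.56 there for its brighter clone and of -1.36 for the other. None of these passed the test in any comparison in which it was tested.

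**Figure D4:**
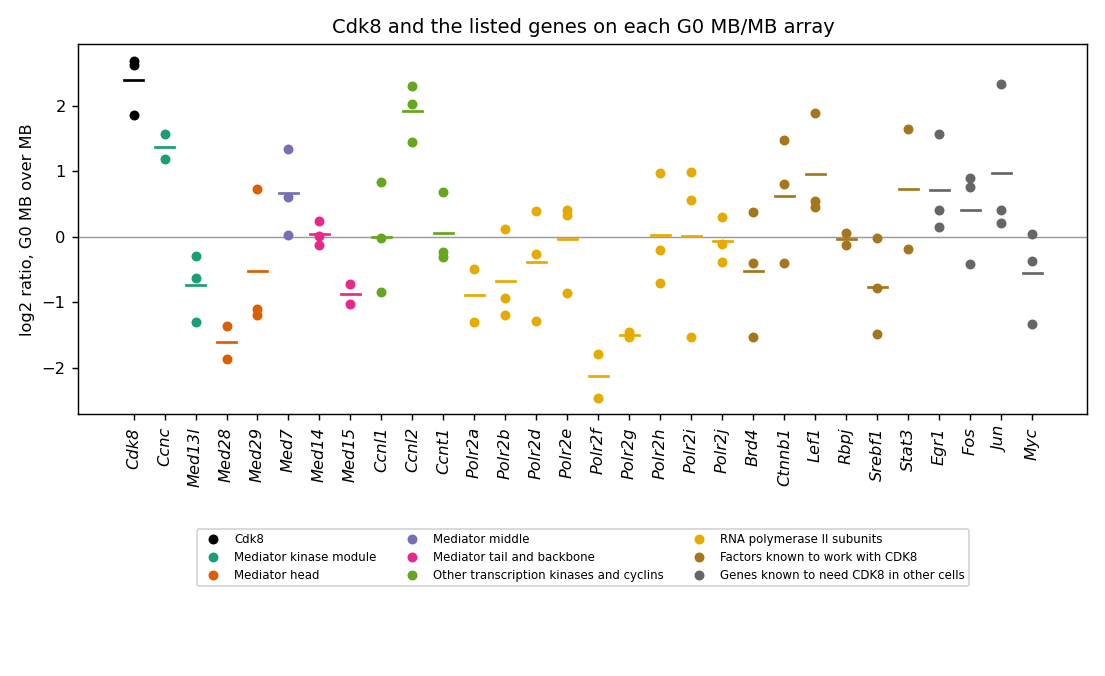
Log2 ratio in G0 MB over MB of Cdk8 and of each listed gene tested there, 1 point per array with a bar at the mean, coloured by list. The 3 points of Cdk8, at 1.87 to 2.69, have only Ccnl2, at 1.46 to 2.31, close to them in mean.

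The genes whose pattern over the 9 arrays was most like that of Cdk8 were found by the cosine between their log2 ratios, which does not depend on the reading, since turning an array turns all clones. Of 3551 other clones with values on all 9 arrays, 9 had a cosine above 0.9, and the median was 0.054. The 5 nearest named genes were Spp1 (0.96), which encodes the secreted matrix protein osteopontin, Huwe1 (0.96, Ureb1 in the files), an E3 ubiquitin ligase, App (0.93), the amyloid precursor protein, Gpi1 (0.92), a glycolytic enzyme, and Ctsb (0.92), the lysosomal protease cathepsin B. The 9 points share the G0 MB and MB states between arrays, and no test was made.

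On the arrays that hold G0 MB these genes had the sign of Cdk8 and differed in size. Spp1 was at 2.76, 3.06 and 3.12 in G0 MB over MB and at -3.64 and -2.35 in G0 MB over MT, close to Cdk8 in both. Ctsb was at 2.34, 3.36 and 2.44, and at -2.46 and -1.71. Huwe1 had the same pattern on a small scale, at 0.39, 0.26 and 0.18 and at -0.40 and -0.41. By the labelled dyes all 5 lay above 0 on the 3 arrays with G0 MB against MB and below 0 on the 4 arrays that set G0 MB against MT or G0 FB, as the choice by cosine favours. In MT over MB they did not all run with Cdk8: Gpi1 was at -0.40 and 0.44, opposite to the 0.37 and -0.22 of Cdk8 on both arrays, and Spp1 was at -0.32 and -0.03.

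**Figure D5:**
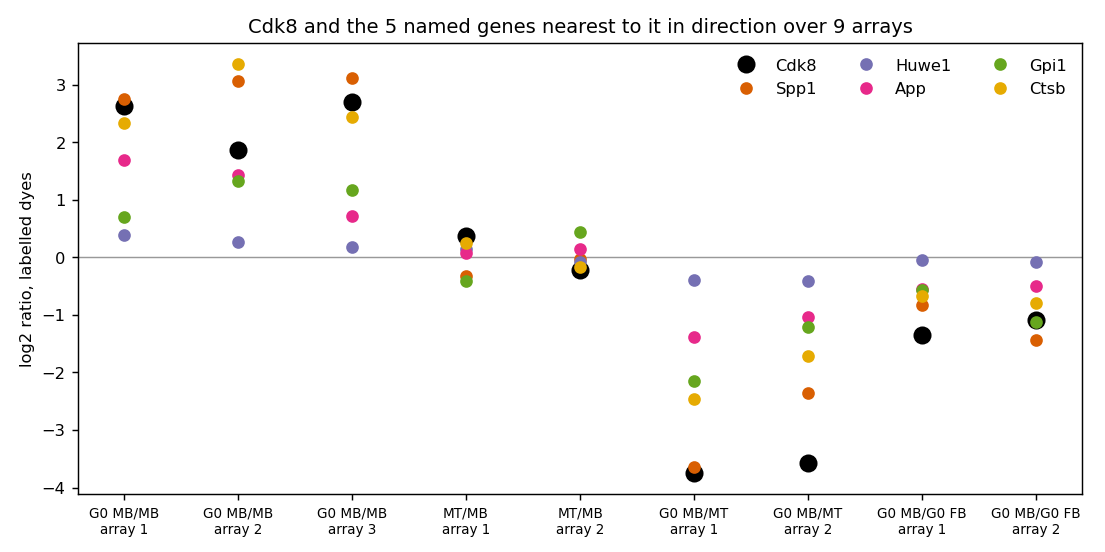
Log2 ratios by the labelled dyes of Cdk8 (large black points) and of the 5 named genes with the highest cosine to it, on each of the 9 arrays. All 6 lie above 0 in G0 MB/MB and below 0 in G0 MB/MT and G0 MB/G0 FB, with Huwe1 between -0.41 and 0.39 throughout.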

How the data were processed

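Spot quantification and background subtraction were done by the authors in ArrayVision, followed by LOWESS on each array. The deposited Cy3 and Cy5 intensity values already hold these steps, so none was repeated. Tool versions are not given in the sources used here. The log2 columns deposited by the authors hold the ratio of both channels, and the series value table was used as an alternative; in it the columns of both MT over MB replicates are exchanged. Each array had 31200 spots, and 36.4% to 61.1% of the clone spots had at least 1 channel above the limit; the others were left out. The number of arrays limits the precision. Duplicate spots were averaged, and limma 3.58.1 in R 4.3.3 (lmFit, eBayes) fitted 1 coefficient per comparison to the log2 ratios of all 9 arrays, for clones with at least 2 arrays in the comparison and 2 residual degrees of freedom. A clone was called at a Benjamini-Hochberg adjusted p under 0.04 over all clones tested together with a ratio beyond 1.6-fold (0.67 on the log2 scale). Both thresholds are those of the study's methods, which applied the first to the false discovery rate of SAM. Raw intensities had been assumed when the tests were designed, and a repeated loess was run as an alternative. The fit was tested on simulated data.

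Of 15294 clones 11140 had a symbol, and 2633 of 7643 file symbols were updated through RefSeq. Where several clones carried a gene, the brightest was used. Named are Cdk8, its module partners, listed genes called in either reading or else up to 2 per list with the largest mean ratio in G0 MB over MB on all 3 arrays, and the 5 genes nearest in cosine. Med28, Med15, Ctnnb1, Stat3, Crebbp, Fos, Myc and single markers were named after their values were seen. The gene, the lists and the markers were chosen with earlier results of these data known. Figures were drawn with matplotlib.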

Additional observations from a re-analysis of the deposited data

How the results depend on the processing

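Cdk8 stayed above 0 in G0 MB over MB under all alternatives, at 2.25 to 2.66 with single arrays left out, at 1.92 with arrays scaled to 1 spread (in either reading) and at 0.90 in the loop fit by the labelled dyes. MT over MB had no settled sign: -0.29 in title order and in the authors' value table, -0.10 with a dye term, -0.22 to 0.37 with single arrays left out, and 2.32 in the loop fit by the labelled dyes. G0 MB over MT was 3.66 in title order and in the value table, -1.42 in the loop fit, and -3.75 to -3.57 with single arrays left out. G0 MB over G0 FB was 1.23 in title order and in the value table, -1.35 to -1.10 with single arrays left out, and -1.23 with a limma adjusted p of 0.000589 (0.222 to 1 under the other alternatives) when duplicate spots counted as replicates, which the slides they share do not justify.

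In title order, settings added after seeing the data gave for MT over MB -0.66 (loop fit), -0.25 (median centring), -0.36 (scaled arrays), -0.16 (replicate block) and -0.44 (dye term). For the G0 MB the same settings in this order gave 3.30, 3.54, 3.67, 3.79 and 3.66 against MT, and against G0 FB 1.23, 1.25, 1.55, 1.36 and 1.23.

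In the main fit no listed gene was called by the labelled dyes. In G0 MB over MB there were 2 calls in title order, 2 with the other MT over MB array turned, 1 with median centring, 1 with the dim channel set to the limit, 1 with the replicate block, 14 with duplicate spots as replicates and 0 to 2 with single arrays left out (2 without replicate 3). Over all 6903 clones, calls up and down were 104 and 100 in title order and with that array turned. They were 39 and 10 with median centring and 61 and 27 with the dim channel at the limit. The replicate block called 55 and 18 of 5080 clones, and duplicate spots as replicates 1214 and 1724 of 9435. Without replicate 3, 329 and 238 of 5755 were called. In title order there were 1 with the loop fit, 1 with median centring, 2 with the replicate block and 1 with the dye term. Over all clones, that loop fit called 121 up and 187 down of 7067, and median centring 116 and 59 of 6903. The replicate block in title order called 276 and 230 of 5080, and the dye term 88 and 69 of 5647. Duplicate spots as replicates gave 2 calls in MT over MB, 7 in G0 MB over MT and 4 in G0 MB over G0 FB. Over all clones, calls up and down there were 49 and 114 of 7116, 380 and 463 of 6319, and 115 and 171 of 7509. In title order the loop fit gave 1 in each of the comparisons with MT, and scaled arrays 1 in MT over MB. That loop fit called 42 and 38 of 5408 clones in MT over MB and 44 and 40 of 5154 in G0 MB over MT. Scaled arrays called 72 and 89 of 5373 in MT over MB.

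Replicate numbers did not pair the arrays (correlations of deviations -0.43 to 0.040); with the replicate block Cdk8 was at 2.37, 0.19, -3.55 and -1.11 in the 4 comparisons, in the order above, and no call of Cdk8 changed. The median of all clones in G0 MB over MB moved from -0.08 to 0.08 with median centring. The cause of these changes was not tested.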
